A study of Mus musculus with 70 samples.

Results

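The NF-kappaB transcription factors of the mouse pituitary gland were examined as a set of 8 genes. The set held the 5 DNA-binding subunits Nfkb1, Nfkb2, Rela, Rel and Relb, the cytoplasmic inhibitors Nfkbia and Nfkbie, and Bcl3. The genes were taken by symbol from a table of 22835 genes, each read from its transcript with the highest mean level. All 8 exceeded a normalised read count of 1 CPM (the reads of a gene scaled to the total of its library) in each of 18 RNA libraries, and so belonged to the 13145 genes tested.

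NF-kappaB proteins bind DNA as pairs. In resting cells most pairs are held in the cytoplasm by inhibitors of the IkappaB family, which includes the products of Nfkbia and Nfkbie. Signals from receptors of cytokines or microbial products activate the IKK kinase complex, the inhibitors are degraded, and the subunits enter the nucleus. Bcl3 resembles an IkappaB protein but works in the nucleus, where it binds pairs of the p50 and p52 subunits, which are made from the longer Nfkb1 and Nfkb2 products, and can raise or lower transcription. NF-kappaB is best known from immune cells, but its subunits are made in most cell types.

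The RNA came from pituitary glands of adult male C57BL/6J wild type mice and of Thrb-KO mice, in which the gene of thyroid hormone receptor beta (TRbeta) was knocked out. All mice received 0.05% methimazole and 1% potassium perchlorate in drinking water for 4 to 5 weeks, which blocks thyroid hormone synthesis, so no RNA group was untreated. Hypothyroid mice received nothing more, and hyperthyroid mice also received triiodothyronine (T3) at 0.5 µg/ml in the final week alone. Each treatment was represented by 4 wild type and 5 Thrb-KO libraries, each made from 3 pooled pituitaries. Sites bound by TRbeta were listed from untreated male HAB;BirA mice, whose own Thrb gene encodes a tagged receptor that the BirA enzyme biotinylates, against mice with BirA alone, with 3 libraries of each in pituitary and 3 of each in cerebral cortex. Sites of T3-regulated open chromatin were listed from 4 hypothyroid and 4 hyperthyroid ATAC-seq libraries, made from pituitary nuclei of Thrb b2Cre/+ mice with a Sun1-GFP reporter, and thus only from nuclei in which the Thrb2-driven Cre had acted.

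Libraries held 21453548 to 55273749 reads. The libraries fell into a set of 8 (replicates 1 and 2), with Lars2 at 2571 to 3420 CPM, and a set of 10 (replicates 3 to 5), with Lars2 at 53.2 to 95.1 CPM. Each set held all 4 groups. Hyperthyroid wild type replicate 3 stood apart, with growth hormone RNA (Gh) at 159094 CPM. Thrb RNA was 257 ± 27.3 CPM (SD, n = 4) in hypothyroid wild type and 271 ± 20.1 (SD, n = 5) in hypothyroid Thrb-KO libraries, so its level did not separate the genotypes there, and whether the counted transcript spans the deleted part was not tested. In hyperthyroid mice Thrb was 104 ± 22.8 CPM (SD, n = 4) in wild type and 260 ± 32.0 (SD, n = 5) in libraries labelled Thrb-KO.

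Bcl3 was the member that rose with T3 in wild type mice. In hypothyroid wild type pituitaries Bcl3 stood at 2.40, 2.27, 2.11 and 2.21 CPM, each from 61 to 92 reads. In hyperthyroid wild type pituitaries Bcl3 stood at 12.8, 12.0, 11.4 and 12.1 CPM, from 280 to 568 reads. Every hyperthyroid library lay far above every hypothyroid library, and replicates within a group differed little. The group means, 2.25 ± 0.119 and 12.1 ± 0.583 CPM (SD, n = 4 each), differed 5.37-fold, and the exact two-sided permutation test gave p = 0.0286, the smallest that 4 against 4 libraries allow. In limma, fitted to log2(CPM + 1) of all tested genes, the T3 response of Bcl3 was 2.01 ± 0.15 (log2, SE) with adjusted p = 1.12e-08. Adding 1 CPM shrinks differences of genes at such low levels, and edgeR on the recovered reads gave 2.49 for Bcl3. By the limma value Bcl3 ranked 30 among 13145 genes ordered from most raised to most lowered. The response was 2.01 in replicates 1 and 2 alone and 2.01 in replicates 3 and 4 alone.

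The count of members past both limits (adjusted p under 0.05 in limma and a change of at least 1.5-fold) was 1 of 8, Bcl3, for the T3 response in wild type, where 9.46% of tested genes passed and 3.87% passed as higher with T3. Non-overlap of the hypothyroid and hyperthyroid libraries was found for 1 of 8 members, Bcl3, against 17.4% of tested genes. In whole pituitary RNA, more cells of a type and more RNA per cell cannot be told apart. Summed levels of 8 hormone cell markers ran from 69566 to 98227 CPM in hypothyroid and from 107457 to 224252 CPM in hyperthyroid wild type libraries, and those of 3 blood markers from 28.5 to 55.5 and from 65.7 to 77.7 CPM. Most of the hormone cell sum was Gh, at a mean of 115723 of 151153 CPM in hyperthyroid wild type libraries. The 8 hormone cell markers did not move together: 2 were called higher and 2 lower in limma, with a median response of -0.05 (log2). The part of the shifts of these sums in the Bcl3 difference was not tested.

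**Figure D1:**
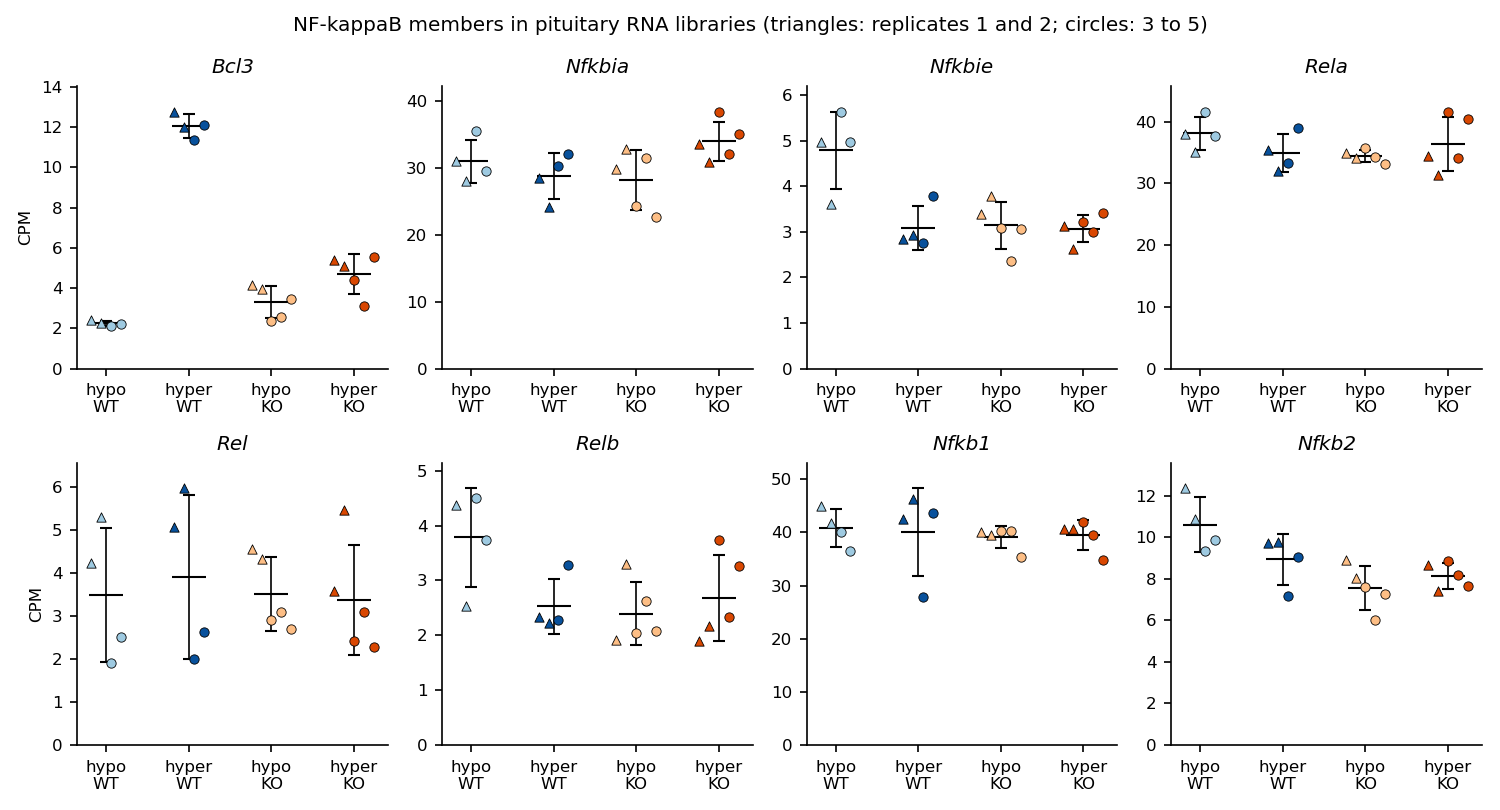
RNA level (CPM, linear axis from 0, own scale per gene) of each of the 8 members in hypothyroid and hyperthyroid wild type and Thrb-KO libraries. Symbols are single libraries (triangles, replicates 1 and 2, and circles, replicates 3 to 5) and bars give mean and SD; the 4 hyperthyroid wild type libraries of Bcl3, at 11.4 to 12.8 CPM, lie above all others, while the groups of Nfkb1, Rela and Nfkbia overlap.

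In Thrb-KO pituitaries the Bcl3 levels of the treatments overlapped. Hypothyroid Thrb-KO libraries held 4.13, 3.96, 2.39, 2.56 and 3.45 CPM of Bcl3, and hyperthyroid Thrb-KO libraries held 5.38, 5.09, 4.38, 3.12 and 5.55 CPM. The hyperthyroid library at 3.12 CPM lay below 3 of the 5 hypothyroid libraries. Group means were 3.30 ± 0.795 and 4.71 ± 0.990 CPM (SD, n = 5 each), a ratio of 1.43, with an exact two-sided permutation p of 0.0556 where 0.00794 was the smallest possible. limma gave 0.41 ± 0.13 (log2, SE) for Bcl3 with adjusted p = 0.169. With the replicate number as a block or the library set as a covariate, limma gave adjusted p = 0.0326 or 0.0364 for the same 0.41. No member passed both limits in the Thrb-KO response with limma, edgeR or DESeq2, against 1.01% of tested genes in limma, and 2 members (Bcl3 and Nfkbia) had an unadjusted limma p under 0.05. No member had non-overlapping groups there, against 5.58% of tested genes.

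The difference between the T3 responses was tested in the same model. The Bcl3 response was lower in Thrb-KO than in wild type by a log2 difference of -1.60 ± 0.20 (SE), with adjusted p = 4.97e-05 in limma. It was -1.70 within replicates 1 and 2 and -1.53 within replicates 3 to 5. Bcl3 was the only 1 of 8 members past both limits in this contrast in limma, edgeR and DESeq2, against 4.26% of tested genes in limma. Counted from the most negative, Bcl3 ranked 29 among the 13145 differences.

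Compared at a single hormone state, Bcl3 was lower in Thrb-KO than in wild type pituitaries under T3. Hyperthyroid Thrb-KO libraries averaged 2.56-fold less Bcl3 than hyperthyroid wild type libraries, the groups did not overlap, and the exact two-sided permutation test gave 0.00794, the smallest p that 5 against 4 libraries allow. The limma difference was -1.21 ± 0.14 (log2, SE), with adjusted p = 7.23e-06. Among the 8 members 1, Bcl3, passed both limits in hyperthyroid mice, against 4.86% of tested genes, and 1, Bcl3, had non-overlapping groups, against 11.3%. In hypothyroid mice Bcl3 stood at 0.38 ± 0.14 (log2, SE) in Thrb-KO relative to wild type, with limma adjusted p = 0.117. That value depended on the library set: it was 0.60 (limma adjusted p = 0.00199) within replicates 1 and 2 and 0.26 (adjusted p = 0.405) within replicates 3 to 5.

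**Figure D2:**
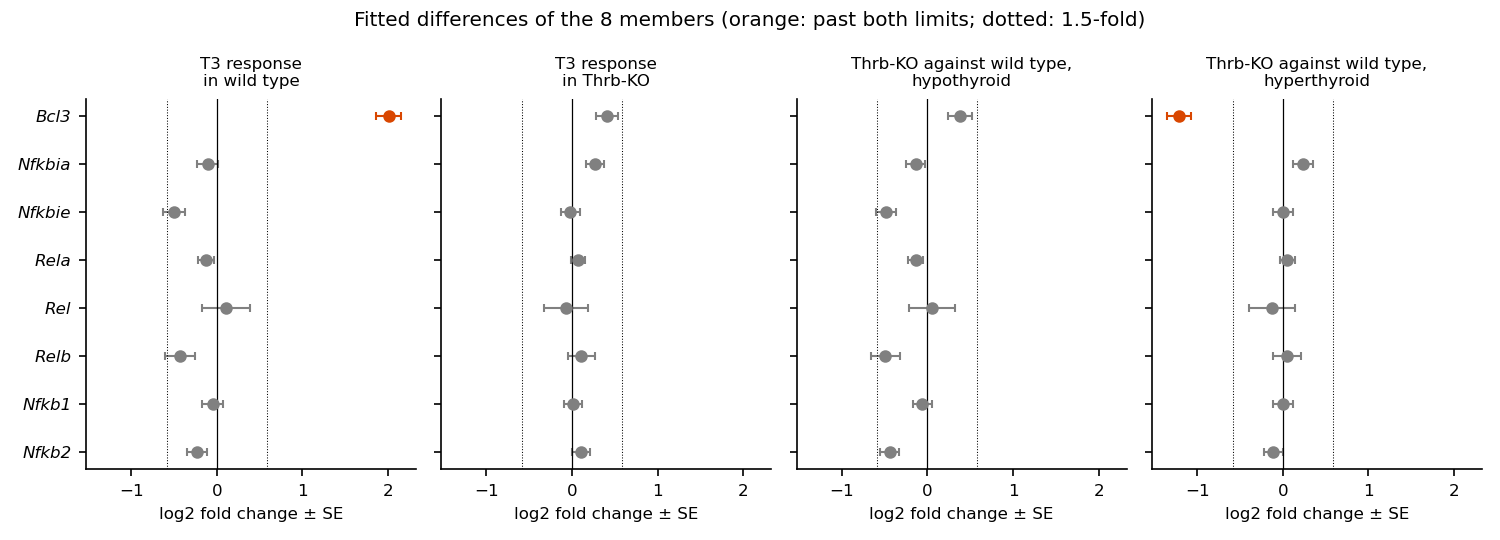
Fitted log2 fold change (points, with SE bars) of the 8 members on the log2(CPM + 1) scale, with a panel per comparison. Orange points pass both limits and dotted lines mark 1.5-fold. Bcl3 is orange in the wild type T3 response (2.01) and the hyperthyroid genotype comparison (-1.21). It is grey in the Thrb-KO T3 response and the hypothyroid genotype comparison, and the other 7 members are grey throughout.

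Neither inhibitor rose with T3 in wild type mice. Nfkbie encodes IkappaB epsilon, and its RNA was at 4.97, 3.61, 5.62 and 4.97 CPM in hypothyroid and 2.83, 2.94, 2.76 and 3.80 CPM in hyperthyroid wild type libraries. Hyperthyroid libraries were lower except that the highest of them exceeded the lowest hypothyroid library. The limma difference of Nfkbie was -0.50 ± 0.12 (log2, SE) with adjusted p = 0.00695, a change of 1.41-fold on that scale and of 1.56-fold between mean CPM, and the exact two-sided permutation test gave p = 0.0571. Nfkbie passed the p limit but not the fold limit. It was the only 1 of 8 members that was lower with adjusted p under 0.05 at any fold, against 12.4% of tested genes. In Thrb-KO mice Nfkbie was at 3.38, 3.80, 3.09, 2.37 and 3.07 CPM without T3 and at 3.12, 2.62, 3.22, 3.00 and 3.40 CPM with it, and these ranges overlapped. The difference between the Nfkbie responses, 0.48 ± 0.17 (log2, SE), had adjusted p = 0.118 in limma.

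Nfkbia encodes IkappaB alpha and is itself a standard NF-kappaB target. Nfkbia RNA was at 31.0, 28.0, 35.4 and 29.5 CPM in hypothyroid and 28.5, 24.1, 30.3 and 32.1 CPM in hyperthyroid wild type libraries. These ranges overlapped, and the limma difference was -0.11 ± 0.12 (log2, SE) with adjusted p = 0.661. Hypothyroid Thrb-KO libraries held 29.8, 32.9, 24.3, 31.5 and 22.7 CPM of Nfkbia, and hyperthyroid Thrb-KO libraries 33.5, 30.8, 38.4, 32.0 and 35.1 CPM, again with overlap. The limma difference in Thrb-KO was 0.27 ± 0.11 (log2, SE) with adjusted p = 0.400, and the exact two-sided permutation test gave p = 0.0476.

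Rela, Nfkb1 and Rel supply p65, p50 and c-Rel, the subunits of the canonical pathway. Rela RNA was at 38.0, 35.1, 41.6 and 37.6 CPM in hypothyroid and 35.4, 32.0, 33.2 and 38.9 CPM in hyperthyroid wild type libraries, a limma difference of -0.12 ± 0.09 (log2, SE) with adjusted p = 0.439. Nfkb1 was at 45.0, 41.7, 40.1 and 36.4 CPM against 42.4, 46.2, 27.8 and 43.6 CPM in the same groups. The value of 27.8 CPM was that of hyperthyroid wild type replicate 3. The Nfkb1 difference was -0.05 ± 0.12 (log2, SE, limma adjusted p = 0.867) with that library and 0.11 without it. Rel was at 4.22, 5.31, 1.91 and 2.50 CPM in hypothyroid and 5.06, 5.96, 1.99 and 2.62 CPM in hyperthyroid wild type libraries, a limma difference of 0.11 ± 0.28 (log2, SE) with adjusted p = 0.870. Rel differed by library set: it averaged 4.81 ± 0.775 CPM (SD, n = 8) in replicates 1 and 2 and 2.55 ± 0.417 CPM (SD, n = 10) in replicates 3 to 5.

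Relb and Nfkb2 supply RelB and p52, the subunits of the non-canonical pathway. Relb was at 4.37, 2.54, 4.50 and 3.73 CPM in hypothyroid and 2.34, 2.23, 2.27 and 3.27 CPM in hyperthyroid wild type libraries. The highest Relb library with T3 stood above the lowest without it, and the limma difference was -0.43 ± 0.17 (log2, SE) with adjusted p = 0.101. Nfkb2 was at 12.4, 10.9, 9.34 and 9.86 CPM against 9.72, 9.78, 7.18 and 9.06 CPM, a limma difference of -0.23 ± 0.12 (log2, SE) with adjusted p = 0.218. Nfkb2 was listed as 3 transcripts with mean levels of 8.65, 8.36 and 8.71 CPM, so the level of the gene is uncertain, and its neighbour Psd overlaps it on the other strand, so that reads of the pair cannot be told apart if the libraries do not keep strand.

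In Thrb-KO libraries the levels of the DNA-binding subunits with and without T3 overlapped. Rela ran from 33.1 to 35.8 CPM in hypothyroid and from 31.3 to 41.6 CPM in hyperthyroid Thrb-KO libraries. Nfkb1 ran from 35.5 to 40.3 and from 34.7 to 41.9 CPM, and Rel from 2.69 to 4.55 and from 2.28 to 5.46 CPM. The non-canonical subunits overlapped as well: Relb ran from 1.91 to 3.31 and from 1.90 to 3.74 CPM, and Nfkb2 from 6.01 to 8.89 and from 7.40 to 8.86 CPM. The T3 responses of the members other than Bcl3 in Thrb-KO mice lay between -0.07 and 0.27 (log2), with limma adjusted p from 0.400 to 1.00. Between genotypes the responses of Rela, Nfkb1, Rel, Relb, Nfkb2 and Nfkbia stood -0.18 to 0.54 apart (log2), with limma adjusted p of 0.259 or more. The median T3 response of the 8 members was -0.11 in wild type and 0.09 in Thrb-KO (log2), where the medians of all tested genes were -0.04 and -0.01.

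Without T3, Nfkbie and Nfkb2 RNA was lower in Thrb-KO than in wild type pituitaries, by less than 1.5-fold on the fitted scale. Nfkb2 was at 8.89, 8.05, 7.62, 6.01 and 7.26 CPM in hypothyroid Thrb-KO libraries, each below the lowest hypothyroid wild type library at 9.34 CPM. The limma difference of Nfkb2 was -0.44 ± 0.11 (log2, SE) with adjusted p = 0.0197, and the exact two-sided permutation test gave p = 0.0159. Nfkbie differed by -0.48 ± 0.12 (log2, SE) with limma adjusted p = 0.0165, and its groups overlapped. Relb was at 1.91, 3.31, 2.04, 2.63 and 2.08 CPM in hypothyroid Thrb-KO libraries, where those at 3.31 and 2.63 CPM stood above the lowest wild type library, and its difference of -0.49 ± 0.17 (log2, SE) had limma adjusted p = 0.0903. In replicates 1 and 2 alone the differences of Nfkb2, Nfkbie and Relb were -0.41, -0.19 and -0.30, and in replicates 3 to 5 alone they were -0.42, -0.72 and -0.66. The hypothyroid genotype comparison thus had 2 of 8 members lower with adjusted p under 0.05 at any fold, against 4.12% of tested genes, and 1 of 8 members with non-overlapping groups, Nfkb2, against 14.3%.

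No member passed both limits in hypothyroid mice in limma, against 3.02% of tested genes. There 4 members had an unadjusted limma p under 0.05, edgeR called 1 (Nfkbie) and DESeq2 called 2 (Nfkbie and Relb). The other members (Nfkb1, Rel, Rela and Nfkbia) differed by -0.14 to 0.06 (log2) in hypothyroid mice, and the 7 members other than Bcl3 by -0.13 to 0.24 in hyperthyroid mice, where limma adjusted p was 0.213 or more. Median differences between genotypes over the 8 members were -0.14 in hypothyroid and 0.00 in hyperthyroid mice (log2), beside 0.03 and 0.07 over all tested genes.

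RNA of immune cells moved with the same comparison. The summed level of 9 immune markers was 105 to 130 CPM in hypothyroid wild type and 61.9 to 72.1 CPM in hypothyroid Thrb-KO libraries, with no overlap. Of 6 that were tested, 4 macrophage genes were lower in hypothyroid Thrb-KO mice past both limits in limma: Csf1r by -0.77, C1qa by -0.84, C1qb by -0.83 and Lyz2 by -1.10 (log2). The immune sums were 79.7 to 150 CPM in hyperthyroid wild type and 61.5 to 83.3 CPM in hyperthyroid Thrb-KO libraries, and 2 of the 6 (C1qa and Lyz2) were lower there. No marker of the list was at 0 in all libraries. The part of immune cell RNA in the values of Nfkbie, Nfkb2 and Relb was not tested.

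For the T3 response in wild type, none of the 6 tested immune markers passed both limits in limma, edgeR or DESeq2. Among all tested genes 9.46% passed in limma, so a count of 0 among so few markers says little. Of the 6, 1 had an unadjusted limma p under 0.05. None of 6 endothelial and 3 blood markers passed in any of the 3 tools or had such a p. The blood markers nevertheless stood 0.65 to 0.76 higher with T3 (log2). Their sums, 28.5 to 55.5 CPM without and 65.7 to 77.7 CPM with T3, did not overlap. None of 4 folliculostellate and stem cell markers and 4 posterior lobe markers passed in any of the tools, with 1 and 3 at an unadjusted limma p under 0.05. Of 6 fibroblast and mural markers, Col1a1 (-0.73) and Col3a1 (-0.62) fell past both limits in limma (log2), and edgeR and DESeq2 each called 1. The 6 ran from -0.73 to 0.34, and their summed level averaged 313 CPM without and 307 CPM with T3. Of 8 hormone cell markers, Gh and Prl rose and Tshb and Cga, the subunits of thyrotropin, fell.

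Compared per length of transcript, the top of the order was the same in all groups, and the lower members changed places. The order by CPM per kb began with Nfkbia, Rela and Nfkb1 in all 4 groups, with no overlap of Nfkbia with Rela or of Rela with Nfkb1. In hypothyroid wild type libraries the level was 19.6 ± 2.04 CPM per kb for Nfkbia, 14.0 ± 0.985 for Rela, 9.91 ± 0.862 for Nfkb1 and 3.31 ± 0.414 for Nfkb2 (SD, n = 4). Nfkbie at 1.98 ± 0.349, Relb at 1.41 ± 0.334, Rel at 1.24 ± 0.558 and Bcl3 at 1.22 ± 0.0645 CPM per kb followed, and neighbours in this stretch overlapped. In hyperthyroid wild type libraries Bcl3 reached 6.52 ± 0.315 CPM per kb (SD, n = 4), overlapping Nfkb1 at 9.72 ± 2.01 and above the single Nfkb2 transcript used, at 2.79 ± 0.379, without overlap. The overlap with Nfkb1 came from replicate 3 alone, where Nfkb1 was at 6.76 and Bcl3 at 6.14 CPM per kb. Bcl3 was below Nfkb1 within every hyperthyroid wild type library. The place of Nfkb2 in every group holds only for that transcript, which is 1 of 3 listed at like levels, with a summed mean of 25.7 CPM against 8.71 for the one used. In Thrb-KO libraries Bcl3 was at 1.78 ± 0.430 CPM per kb without T3 and 2.54 ± 0.535 with it (SD, n = 5), each overlapping Nfkb2.

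Across the 18 libraries, the tested genes whose log2(CPM + 1) followed Bcl3 most closely were Wscd2 (Pearson r = 0.952), Fndc5 (r = 0.951) and Dock6 (r = 0.950). Their T3 responses were 2.43, 2.44 and 3.08 (log2) in wild type and 0.64, 0.35 and 0.78 in Thrb-KO. The closest gene to Rel was Nebl (r = 0.981), with T3 responses of 0.16 and -0.06, and the 18 points of that pair share the split between library sets. For the other members the closest genes were Eef2 for Rela (r = 0.908), Mfn2 for Nfkb1 (r = 0.906), Surf4 for Nfkbie (r = 0.902), Nfatc1 for Nfkb2 (r = 0.897), Naglu for Relb (r = 0.855) and Pkig for Nfkbia (r = 0.749). These correlations describe 18 libraries that share groups, library sets and scaling.

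**Figure D3:**
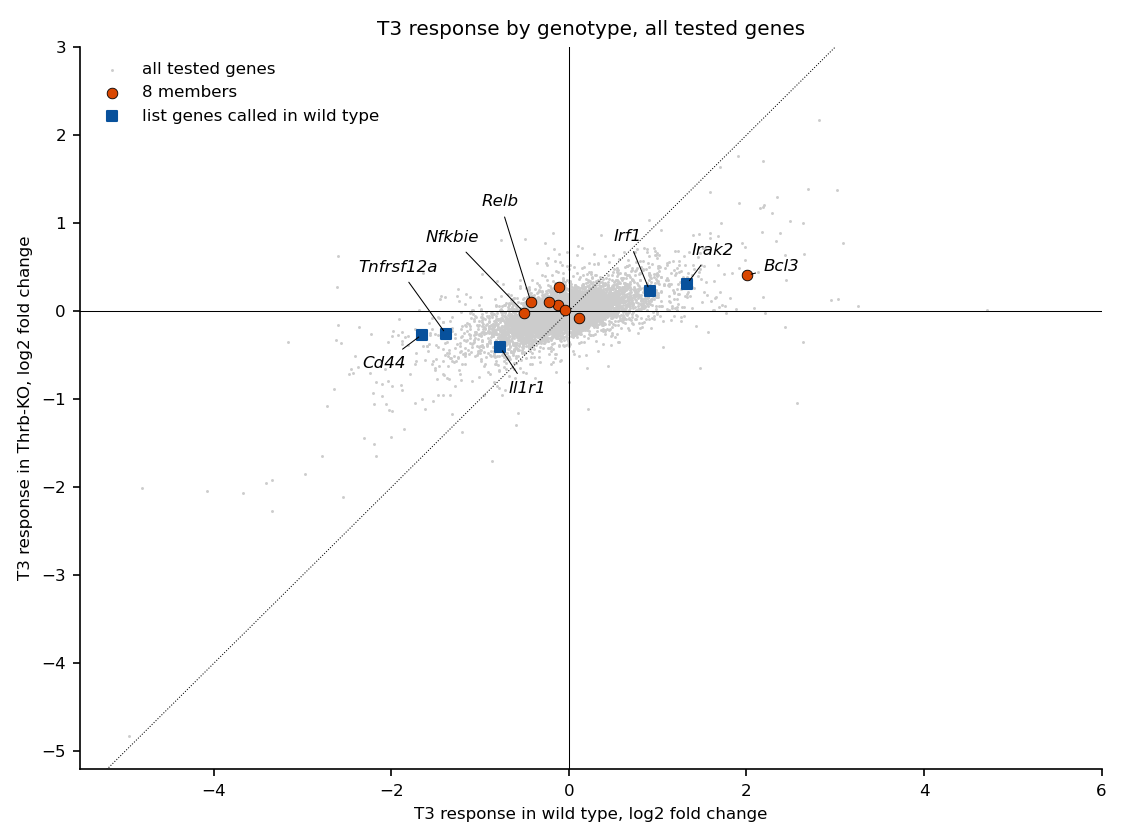
T3 response on the log2(CPM + 1) scale in wild type (horizontal axis) and Thrb-KO (vertical axis) for all 13145 tested genes (small grey points), the 8 members (orange circles) and the pathway genes past both limits in wild type (blue squares), with a dotted line of equal response. Bcl3 lies at 2.01 and 0.41, right of and below the dotted line, and the other 7 members lie near the origin.

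Around the members, the wider NF-kappaB pathway responded to T3 at a few genes only. Lists by role held 109 other genes, of which 79 were tested and 5 passed both limits in wild type: Irak2 and Irf1 rose, and Cd44, Tnfrsf12a and Il1r1 fell. edgeR and DESeq2 each called 7, among them these 5 and the inhibitor Tnip1 (0.50, limma adjusted p = 0.00216), which was short of 1.5-fold in limma. The median over the 79 genes was -0.04 (log2), as over all tested genes, of which 9.46% passed.

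Among 27 tested genes of receptors and their adaptors, 3 passed in wild type. Irak2, an adaptor kinase of interleukin-1 and Toll-like receptors, was at 11.4 ± 1.99 CPM without and 30.4 ± 6.76 CPM with T3 (SD, n = 4 each), a limma response of 1.33 ± 0.15 (log2, SE) with adjusted p = 2.44e-06. In Thrb-KO libraries Irak2 was at 9.11 ± 1.08 and 11.5 ± 0.844 CPM (SD, n = 5 each), and the responses differed by -1.02 (limma adjusted p = 0.00375). Tnfrsf12a, the receptor of TWEAK, went from 22.8 ± 5.37 to 8.32 ± 3.10 CPM (SD, n = 4 each) in wild type, a response of -1.38 (limma adjusted p = 0.000446). Il1r1, the interleukin-1 receptor, went from 53.7 ± 5.86 to 32.1 ± 9.61 CPM (SD, n = 4 each), a response of -0.77 (limma adjusted p = 0.00947). Without hyperthyroid wild type replicate 3 the Il1r1 response was -0.55 (adjusted p = 0.0232), and in replicates 1 and 2 alone it was -0.39 (adjusted p = 0.0159), both under 1.5-fold. Il1r1 was at 51.1 ± 6.69 without and 38.7 ± 8.43 CPM with T3 in Thrb-KO libraries (SD, n = 5 each). Tnfrsf12a was at 12.5 ± 1.42 and 10.7 ± 3.88 CPM there. Of the 27 genes only Irak2 passed both limits in the difference of responses in limma.

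Of 29 genes listed here as NF-kappaB targets, 14 were tested and 2 passed in wild type, in opposite directions. Cd44, an adhesion receptor, fell from 22.1 ± 5.25 to 6.21 ± 0.527 CPM (SD, n = 4 each), a limma response of -1.65 ± 0.15 (log2, SE) with adjusted p = 1.55e-07. In Thrb-KO libraries Cd44 was at 7.33 ± 1.15 and 5.92 ± 0.803 CPM (SD, n = 5 each), so that hypothyroid Thrb-KO libraries were near the hyperthyroid wild type level, and the responses differed by 1.39 (limma adjusted p = 0.000213). Irf1, an interferon-regulatory transcription factor, rose from 18.1 ± 4.12 to 35.2 ± 9.92 CPM (SD, n = 4 each), a response of 0.91 (limma adjusted p = 0.00343). In Thrb-KO libraries Irf1 was at 23.5 ± 3.15 and 28.3 ± 6.96 CPM.

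The remaining lists held no gene past both limits in wild type by limma. These were 9 tested inhibitors and feedback genes (2 with an unadjusted p under 0.05, and Tnip1 called by edgeR and DESeq2), 12 genes of the IKK complex and the non-canonical kinases (2 with such a p and none called by either tool), 4 of 12 ligands (2 with such a p, none called) and 14 nuclear partners of Bcl3 and RelA (3 with such a p, and 1 called by each tool). In the Thrb-KO response none of the 79 genes passed in limma, edgeR or DESeq2, where 1.01% of all tested genes passed in limma. Of the 79, 2 had an unadjusted limma p under 0.05. Between genotypes, Cd44 and Tnfrsf12a were lower in hypothyroid Thrb-KO mice, and Irak2 and Tnip1 were lower in hyperthyroid Thrb-KO mice, past both limits in limma. Of all tested genes 3.02% passed in hypothyroid and 4.86% in hyperthyroid mice, in either direction.

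**Figure D4:**
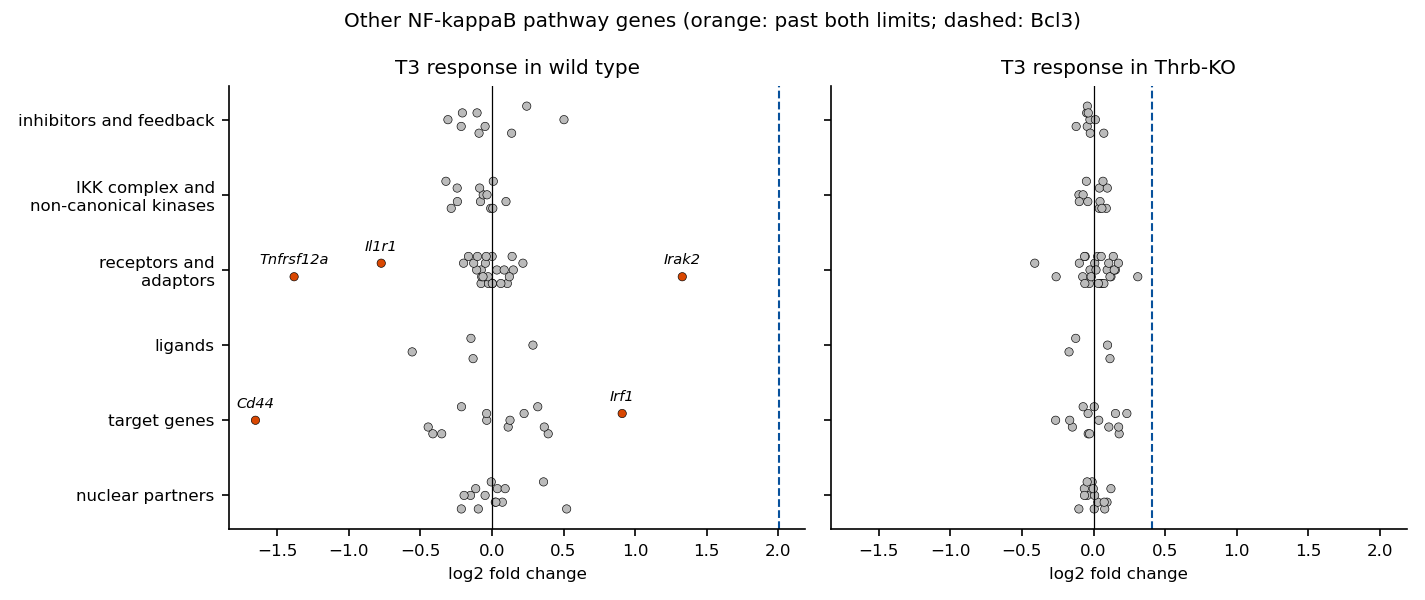
T3 response (log2 fold change on the log2(CPM + 1) scale) of the 79 tested pathway genes by role, in wild type (left) and Thrb-KO (right), each point a gene, orange where past both limits, and a dashed line at the response of Bcl3. Orange points are Irak2, Irf1, Il1r1, Tnfrsf12a and Cd44 in wild type, none is orange in Thrb-KO, and the Bcl3 line is at 2.01 and 0.41.

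TRbeta acts on genes by binding DNA, often at direct repeats of AGGTCA with 4 bases between them (DR4), so the peak lists were read around each member. The gene positions are those of mouse build mm9. Within 20 kb of the gene body, 7 of 8 members had a TRbeta-HAB peak in pituitary, where 41.3% of 12898 placed genes did, and 4 of 8 had a peak in cortex, where 34.9% did. A T3-regulated ATAC peak lay near 2 of 8 members, Bcl3 and Nfkb1, against 7.79% of genes. The lists came from merged libraries, so no peak has a replicate error, and read counts were low: the 14 pituitary peaks near members held 11 to 50 reads from HAB;BirA mice, where the median over the whole list of 8051 was 18.

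Bcl3 (chr7:20393811-20408119, minus strand) had 4 pituitary peaks within 20 kb, as many as or more than which were found at 283 of 12898 genes (2.19%). In a coding exon, 12919 bases from the start, chr7:20394751-20395200 held 29 reads from HAB;BirA and 1 from BirA control mice, and it overlapped a T3-regulated ATAC peak at chr7:20394790-20395152. An intronic peak at chr7:20401601-20401800 held 17 and 2 reads and overlapped a cortex peak at chr7:20401601-20401900 with 15 and 0 reads. Upstream of the start, chr7:20409601-20410050 (1482 bases away) held 43 and 3 reads, and chr7:20416001-20416400 (7882 bases away) held 50 and 3 reads. A larger peak lay outside the 20 kb window, 41332 bases upstream of Bcl3 and 2803 bases from Ceacam16, its nearest coding gene. It covered chr7:20449451-20450250, held 168 reads against 9, ranked 38 among the 8051 pituitary peaks by false discovery rate, and overlapped an ATAC peak at chr7:20449490-20450512.

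The closest DR4 match in each of these 5 peaks is shown with 22 bases on either side, since the peaks differ in how near they come to the repeat. Sequences are from mm9, read 5′ to 3′ on the strand given, with the 2 half-sites in capitals.
Bcl3 exon peak, chr7:20395033-20395092, minus strand: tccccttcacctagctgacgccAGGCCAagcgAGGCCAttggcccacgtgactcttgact
Bcl3 intron peak, chr7:20401713-20401772, plus strand: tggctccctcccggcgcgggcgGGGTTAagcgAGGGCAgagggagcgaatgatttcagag
Bcl3 nearer upstream peak, chr7:20409724-20409783, plus strand: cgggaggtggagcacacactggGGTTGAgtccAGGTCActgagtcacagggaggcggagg
Bcl3 farther upstream peak, chr7:20416162-20416221, plus strand: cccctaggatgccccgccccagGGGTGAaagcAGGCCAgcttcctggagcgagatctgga
Bcl3 distant upstream peak, chr7:20449761-20449820, minus strand: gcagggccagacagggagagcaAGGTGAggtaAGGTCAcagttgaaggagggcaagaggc

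Over the 12 bases of the repeat, the exon match differed from DR4 at 2 bases, the intron match and both nearer upstream matches at 3, and the distant match at 1. Matches with at most 2 mismatches, searched on both strands, were in 20.9% of all pituitary peaks, in 46.4% of those that overlapped an ATAC peak and in 3.58% of regions of the same lengths moved 10 kb away. They were in 29.6% of pituitary peaks of 450 bases, the width of the exon peak. At 800 bases, the width of the distant peak, 30.4% of 23 peaks held them. Matches with at most 1 were in 3.94% of all pituitary peaks, 11.0% of those that overlapped an ATAC peak and 0.323% of the regions 10 kb away. Matches with at most 3 were in 55.0% of all pituitary peaks and in 25.7% of the regions 10 kb away. A match is a likeness of letters, and no sequence was tested for binding or activity here. The paper reported T3-inducible enhancer activity, in transfected pituitary cells, for a fragment with a TRbeta-bound site at the Ceacam16 locus. That activity depended on the DR4 motifs of the fragment. Whether the fragment covers the distant peak shown here was not checked.

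**Figure D5:**
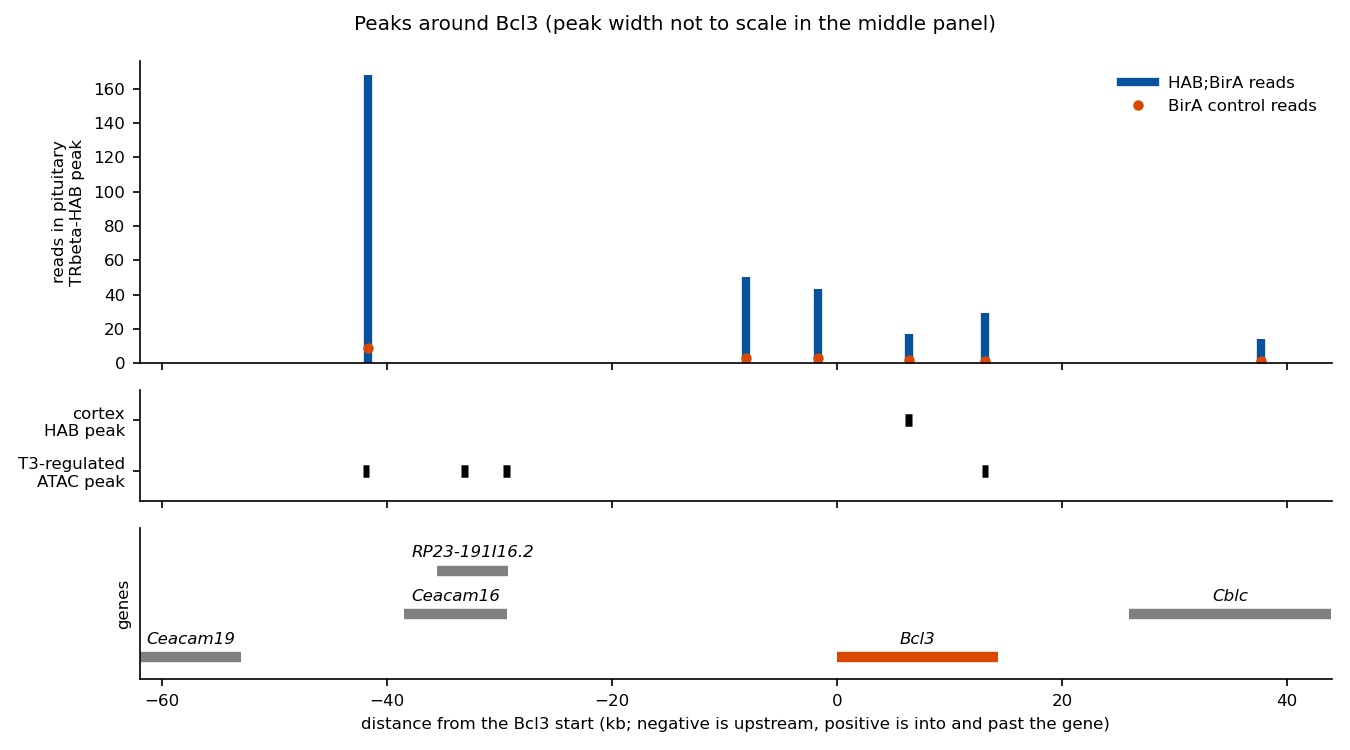
Peaks around Bcl3 by distance from its start (kb; negative values are upstream): reads in pituitary TRbeta-HAB peaks (top; bars, HAB;BirA mice, and points, BirA controls), cortex TRbeta-HAB and T3-regulated ATAC peaks (middle) and genes (bottom). Reads rise to 168 at the distant peak beyond Ceacam16, and ATAC peaks coincide with that peak and with the exon peak of 29 reads.

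Genes next to the Bcl3 peaks, chosen after their values were seen, were read in the same libraries. Ceacam16 was at 0.218 to 0.379 CPM in hypothyroid and 14.7 to 16.9 CPM in hyperthyroid wild type libraries, and at 0.308 to 0.507 and 3.03 to 5.73 CPM in Thrb-KO libraries. With no filter on low levels, limma gave Ceacam16 responses of 3.72 in wild type (log2, adjusted p = 8.18e-12) and 1.82 in Thrb-KO (adjusted p = 1.65e-07). Ceacam16 itself holds ATAC peaks at chr7:20437277-20437676 and chr7:20441101-20441441. On the other side of Bcl3, Cblc, with a pituitary peak of 14 and 1 reads, had a wild type response of 0.29 (limma adjusted p = 0.0596). Ceacam19, upstream beyond Ceacam16, had at most 6 reads in any wild type library. Gm16175 and Gm16174 overlap Bcl3 on the other strand, and reads from them cannot be told apart from Bcl3 reads if the libraries do not keep strand.

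Nfkb1 (chr3:135247619-135354511, minus strand) had 3 T3-regulated ATAC peaks within 20 kb, which 26 of 12898 genes (0.202%) reached, yet its RNA changed with T3 by -0.05 in wild type and 0.01 in Thrb-KO (log2). That share was not matched for gene length, and the body of Nfkb1 is long, at 106893 bases against 14309 for Bcl3. An ATAC peak at chr3:135283381-135283738 overlapped an intronic TRbeta-HAB peak at chr3:135283401-135283700 with 36 reads from HAB;BirA and 5 from BirA mice, and another ATAC peak followed at chr3:135283901-135284314. The remaining ATAC peak, chr3:135243381-135243748, was 3871 bases past the gene. A pituitary peak at chr3:135249451-135249750 (17 and 3 reads, intron) overlapped a cortex peak at chr3:135249451-135249800 (14 and 0 reads). The closest DR4 matches of the TRbeta-HAB peaks are shown for comparison with those at Bcl3.
Nfkb1 peak shared with cortex, chr3:135249531-135249590, minus strand: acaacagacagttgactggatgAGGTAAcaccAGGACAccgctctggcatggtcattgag
Nfkb1 peak shared with ATAC, chr3:135283552-135283611, minus strand: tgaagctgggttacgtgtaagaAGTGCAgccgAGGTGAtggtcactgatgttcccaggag

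The Nfkb1 match shared with cortex had 2 mismatches and the match shared with ATAC had 3. Over all members, 14 pituitary peaks lay within 20 kb. Of these, 2 overlapped an ATAC peak, the Bcl3 exon peak and the Nfkb1 intron peak, where 872 of all 8051 pituitary peaks (10.8%) did. A DR4 match with at most 2 mismatches was in 2 of the 14, the Bcl3 exon peak and the Nfkb1 peak shared with cortex.

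At the other members TRbeta-HAB peaks lay without a T3-regulated ATAC peak. Nfkbia (chr12:56590398-56593634, minus strand) had 3 pituitary peaks, as many as or more than which 5.25% of genes had: chr12:56592851-56593200 in an intron with 29 and 8 reads, chr12:56593551-56593750 at the start with 11 and 1, and chr12:56596101-56596350 at 2467 bases upstream with 25 and 4. Its cortex peak was chr12:56600001-56600350, with 13 and 2 reads. Rel (chr11:23641514-23670970, minus strand) had a peak over its start, chr11:23670701-23671050, with 28 reads and 1. These peaks stood at genes whose T3 responses in wild type were -0.11 (Nfkbia) and 0.11 (Rel) on the log2 scale.

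The peaks of Nfkb2, Relb and Nfkbie lay outside their gene bodies, in or near other genes. Nfkb2 (chr19:46379227-46386580, plus strand) had pituitary peaks in an intron of Psd, chr19:46395901-46396250 with 17 and 2 reads, and at the start of Fbxl15, chr19:46402601-46402700 with 13 and 0 reads, and the cortex peak chr19:46402401-46403450 with 31 and 8 reads. Relb (chr7:20191566-20214787, minus strand) had chr7:20189551-20189800, 1766 bases past the gene in an exon of Clasrp, with 12 reads and 1. Nfkbie (chr17:45692665-45700118, plus strand) had chr17:45711601-45711700, 11483 bases past the gene and nearest to Hsp90ab1, with 12 reads and 1. Rela (chr19:5637483-5648130, plus strand) had no pituitary peak within 100 kb. The 9 other tested genes within 20 kb of the members' pituitary or ATAC peaks (Manba, Cuedc2, Fbxl15, Psd, Tmem180, Hsp90ab1, Slc29a1, Slc35b2 and Clasrp) had wild type T3 responses of -0.33 to 0.12 (log2). None of the 9 passed both limits in limma, edgeR or DESeq2, and 1 had an unadjusted limma p under 0.05.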

How the data were processed

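RNA levels were deposited as CPM per RefSeq transcript of mm9. The authors aligned reads with BBMap to RefSeq transcripts, per the study's methods, while the submitters' processing notes name STAR. Low CPM values were whole multiples of 1 read, within 0.05 read, for 100% of values, so counts of reads were recovered from the deposited CPM. Per the labels a Truseq or a ThruPLEX kit was used, and which library had which kit is not given in the sources used here. TRbeta-HAB peaks were called by the authors with SICER 1.1 on merged libraries after Bowtie2 alignment. The deposited lists hold read counts per peak, a fold (ratio) over the control, a false discovery rate and a p-value, and the false discovery rate was used only to rank peaks and to shorten the lists. The deposited ATAC list (Bowtie2, MACS2, edgeR) also holds the authors' own comparison of hypothyroid with hyperthyroid libraries (fold changes and p-values), which was not used, so the direction of each site is not given here.

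Members and gene lists were chosen with earlier results of these data known. For each gene the transcript with the highest mean CPM was kept, and genes above 1 CPM in all 18 libraries were tested. One limma 3.58.1 model (R 4.3.3, trended variance) of the 4 groups was fitted to log2(CPM + 1), with Benjamini-Hochberg adjustment over all 13145 genes. A gene was called at adjusted p under 0.05 and at least 1.5-fold. Single members were also compared by exact two-sided permutation over libraries. edgeR 4.0.16 (quasi-likelihood) and DESeq2 1.42.0 on recovered reads were alternatives. The main limma fit, edgeR and DESeq2 were tested on simulated data without a difference between library sets. The fits with a block or covariate were not tested in this way, and the hypothyroid genotype comparison was not scored. Named genes were all members, list genes called in either T3 response, Thrb, the genes most correlated with each member (3 for Bcl3, 1 for each other), and tested genes within 20 kb of the members' peaks. Genes called between genotypes, markers, and genes beside the distant Bcl3 peak were named in addition. The values of 1 list gene are not reported here.

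Same-numbered libraries of different groups deviated together in 17 of 17 pairs (correlation 0.255 to 0.815), which rests on the data and not on the labels. Same-numbered libraries also share a library set, so this measure cannot tell pairing from set. The main fit held neither, and fits with the replicate number as a block or the library set as a covariate were alternatives. Only 8 of the 17 pairs correlated best with their own number, and in the others a different number correlated more. No label says that libraries came from separate litters or cohorts, so p-values measure the spread between pools of 3 pituitaries. Genes were placed by GENCODE annotation of mm9 (98.1% of tested genes), peaks by bedtools 2.31.1 with at least 1 shared base, and lengths are those of the longest coding transcript. Read counts of peaks carry counting error and no replicate error. Group labels of BirA controls were taken from sample titles.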

Additional observations from a re-analysis of the deposited data

Results flagged for a closer look

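The T3 response of Bcl3 differed between genotypes, at 2.01 in wild type and 0.41 in Thrb-KO, a difference of -1.60 (log2, limma adjusted p = 4.97e-05). Among the other pathway genes the response of Cd44 differed by 1.39 (adjusted p = 0.000213), from -1.65 in wild type to -0.26 in Thrb-KO. The response of Irak2 differed by -1.02 (adjusted p = 0.00375), from 1.33 to 0.31.

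Single libraries lay apart from their group in 2 of 52 groups of values, where chance gives about 1 in 20, or 2.6. Nfkb1 in hypothyroid Thrb-KO replicate 5 was at 35.5 CPM, below the other libraries of the group at 39.5 to 40.3 CPM. Relb in hyperthyroid wild type replicate 4 was at 3.27 CPM, above the others at 2.23 to 2.34 CPM.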

How the results depend on the processing

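The calls of Bcl3 in the wild type T3 response, the difference of responses and the hyperthyroid genotype comparison held in each alternative run, with a T3 response of 1.98 to 2.03 when single libraries were left out. The 1 member called in the wild type response became 2, with Nfkbie, under a pseudocount of 0.1 and with no fold limit, and 1 to 2 when single libraries were left out. Nfkbie was added without hypothyroid wild type replicate 2 (-0.60), and the difference of responses then also held 1 to 2 members. The 5 other pathway genes became 15 with no fold limit. In hypothyroid mice, the 0 members called between genotypes became 1 under a pseudocount of 0.1 (Nfkbie), 1 in edgeR, 2 in DESeq2, 1 in replicates 1 and 2 alone (Bcl3), 2 in replicates 3 to 5 alone, 2 with no fold limit, and 0 to 2 when single libraries were left out, the 2 being Nfkbie and Relb without hypothyroid wild type replicate 2. Members with a pituitary peak went from 7 to 4 within 1 kb and 4 in a list cut to 0.5 of its length by false discovery rate, those with a cortex peak from 4 to 2, 2 and, within 100 kb, 7. Peaks with a DR4 match went from 2 to 0 at 1 mismatch and 8 at 3. The stricter ATAC list was not run, because it needs the authors' comparison.

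The Nfkb1 response in wild type (-0.05) reversed to 0.014 under TMM scaling, 0.025 in edgeR, 0.031 in DESeq2 and 0.032 in replicates 1 and 2 alone, and ran from -0.13 to 0.11 with single libraries left out, 0.11 being without hyperthyroid wild type replicate 3. The Rel response (0.11) ran from -0.086 to 0.32. The causes were not tested. Of the 24 member values given only as ranges, 17 changed sign under some setting and 0 were called under any. With the replicate block, Bcl3 had a Thrb-KO response of 0.41 (limma adjusted p = 0.0326) and a hypothyroid genotype difference of 0.35 (adjusted p = 0.0458), both under 1.5-fold, and the block changed no member's call. All genes called in the wild type response split into 509 higher and 735 lower in limma, 718 and 675 in edgeR and 756 and 683 in DESeq2. Bcl3 in hypothyroid wild type rested on 61 to 92 reads, which limits its fold change, and the pituitary peaks near members held 50 reads or fewer.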
